A study of Homo sapiens with 16 samples.

Results

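YAP1, WWTR1, TEAD1, LATS2, AJUBA, AMOTL2, CTGF, CYR61, ANKRD1 and AXL, the YAP and TAZ coactivator genes with a partner, regulators and reported target genes, were followed in HT-1080, a human fibrosarcoma line in long use. These 10 genes, of 17552 with values, were chosen by their symbols from the table of expression values, with the older symbols CTGF (now CCN2) and CYR61 (now CCN1). They were chosen with measured FPKM values of these same libraries, in all 8 groups, already known, so their levels and differences are given as a description and no p-value of a member is used as support. The 8 groups had 2 libraries each: cells given siRNA to both DCAF8 and LSH (siDCAF8+siLSH), WDR76 overexpressed (oeWDR76), siRNA to DCAF8 alone (siDCAF8) and the control siRNA (siNS), each with erastin at 10 µM for 24 h or without it. Erastin blocks cystine uptake and drives cells towards ferroptosis, an iron-dependent death by lipid peroxidation. All groups were the same line in the same serum-containing medium. No empty-vector library accompanied oeWDR76, and the labels do not say whether the cells overexpressing WDR76 were 1 clone. Since each label's protocol mentions erastin, treatment was taken from the group names.

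YAP and TAZ (encoded by WWTR1) are coactivators of the Hippo pathway. The kinases LATS1 and LATS2 phosphorylate them, which keeps them in the cytoplasm and marks them for degradation. When not phosphorylated they enter the nucleus and work through TEAD factors, which bind DNA and switch on genes such as CTGF, CYR61, ANKRD1, AXL and AMOTL2. RNA levels of these genes do not measure where the YAP and TAZ proteins are. In bulk RNA, fewer cells that express a gene and less RNA per cell cannot be told apart.

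Stretches of the CTGF and ANKRD1 promoters are shown because these genes had the widest ranges of the 10 and their windows the most copies of the core TEAD motif. The motif was searched as GGAATG and its reverse complement CATTCC in RefSeq promoter windows (GRCh38.p14) from 250 bases before to 50 bases after a start site, and it is in capitals below.
CTGF, chr6:131951453-131951562, minus strand: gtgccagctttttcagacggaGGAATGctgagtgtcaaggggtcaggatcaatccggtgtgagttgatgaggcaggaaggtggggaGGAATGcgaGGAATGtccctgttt
ANKRD1, chr10:90921198-90921327, minus strand: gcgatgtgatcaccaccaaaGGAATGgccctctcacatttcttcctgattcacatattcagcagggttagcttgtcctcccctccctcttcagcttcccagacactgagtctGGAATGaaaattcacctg
The CTGF window held the motif 3 times, beginning at -169, -104 and -95 from the start site, and the ANKRD1 window held it 2 times, at -220 and -128. For ANKRD1 the RefSeq start site lay 188 bases inside the gene as the deposited table draws it, against 6 bases for CTGF. The windows of YAP1 (at -162) and LATS2 (at +10) each held the motif once. AJUBA, AMOTL2 and AXL had 2 windows each, and the motif was in the one that starts 5800, 970 and 7556 bases inside the gene (at -59, -69 and -212), while the windows 91, 0 and 24 bases from the gene's 5′ end held none. Neither window of WWTR1 held it. Of 12 windows for 8 of the 10 genes, 7 held at least 1 copy, or 58.3%, beside 14% of 35116 windows of all genes and 11.4% of 13609 windows of the genes tested. The CTGF window was among 45 of all windows with at least 3 copies. CYR61 and TEAD1 were not matched. A match describes these letters and is not a binding site shown by these data.

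As the deposited table places them on GRCh38, the coactivator genes YAP1 and WWTR1 lie on chromosome 11 at 102110461 to 102233423 and on chromosome 3 at 149517235 to 149703273, and TEAD1 on chromosome 11 at 12674422 to 12944737. LATS2 lies on chromosome 13 at 20973036 to 21061583, AJUBA on chromosome 14 at 22971174 to 22982642 and AMOTL2 on chromosome 3 at 134355345 to 134375417. The target genes CTGF, CYR61, ANKRD1 and AXL lie on chromosome 6 at 131948176 to 131951378, chromosome 1 at 85580761 to 85583967, chromosome 10 at 90912100 to 90921275 and chromosome 19 at 41219199 to 41261767.

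The values are fragments scaled by transcript length and library size (FPKM) as the authors deposited them, so levels of different genes can be compared per length, and the sequencing depth is unknown. Differences are on the log2 scale of FPKM + 1, with the standard error (SE) of a limma model with 8 group means, and all 10 genes passed its filter of a mean of 1 FPKM. The labels do not say whether both libraries of a group are from different cultures, so SDs and p-values measure only the spread between libraries, which correlated at 0.996 to 0.997 within groups. DCAF8 averaged 15.8 ± 2.23 FPKM in siDCAF8+siLSH and 12.0 ± 0.304 in siDCAF8, against 39.7 ± 1.08 in siNS (SD, n = 2 each, without erastin). HELLS, which encodes LSH, averaged 4.06 ± 0.0141 FPKM in siDCAF8+siLSH and 7.14 ± 0.438 in siDCAF8, against 4.02 ± 0.0495 in siNS, so without erastin its RNA in siDCAF8+siLSH was below siDCAF8 and not below siNS. With erastin it averaged 2.24 ± 0.170 FPKM in siDCAF8+siLSH and 5.87 ± 0.0283 in siDCAF8, against 3.49 ± 0.163 in siNS. WDR76 averaged 267 ± 0.445 in oeWDR76 against 3.21 ± 0.445 in siNS, and 7.61 ± 0.113 in siDCAF8+siLSH and 5.155 ± 0.219 in siDCAF8, without erastin. In oeWDR76 without erastin HELLS averaged 10.9 ± 0.537 FPKM, above siNS, and DCAF8 31.9 ± 1.38, below siNS. The oeWDR76 libraries thus did not differ from siNS in WDR76 alone among the targeted genes. Because DCAF8 was less depleted in siDCAF8+siLSH than in siDCAF8 and HELLS was at the siNS level without erastin, comparisons of these groups do not isolate a loss of LSH. The libraries carried mesenchymal markers (5 genes summing to 2172 to 3879 FPKM), with VIM at 1273 to 2067 and FN1 spread from 111 to 1985.5. Epithelial markers were near absent (EPCAM 0 to 0.2 and CDH1 0.18 to 0.51 FPKM). Sums of leukocyte, endothelial and melanocyte markers were low, at 1.7 to 3.6, 0.81 to 4.04 and 1.81 to 4.75 FPKM. Total FPKM ran from 495857 to 503867 in the oeWDR76 libraries and from 436290 to 455662 in the others. Levels in oeWDR76 libraries leaned towards genes rich in GC, by 0.19 to 0.23 log2 per 10% GC, against -0.16 to 0.03 in the other libraries. Within that range, the siDCAF8 libraries had 0.03 and -0.03 without erastin and -0.14 and -0.14 with it. The siDCAF8+siLSH libraries had -0.11 and -0.16 without erastin and -0.05 and -0.06 with it, so the slope differed with erastin there too. Differences corrected for GC content and transcript length together, called the GC correction below, stand beside the differences between oeWDR76 and siNS. The correction does not tell GC content and length apart, and the part of the oeWDR76 slope in these differences was not tested otherwise.

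YAP1 and WWTR1, the coactivator genes, differed in opposite directions after DCAF8 depletion. YAP1 measured 50.6 and 52.7 FPKM in siDCAF8 with erastin, against 31.4 and 31.8 in siNS. Without erastin it measured 46.6 and 47.0 in siDCAF8, against 30.8 and 28.3 in siNS. All 4 siDCAF8 libraries stood above all 4 siNS libraries, with log2 differences of 0.69 with erastin and 0.65 without it (SE 0.06). WWTR1 measured 44.3 and 43.5 FPKM in siDCAF8 with erastin, against 68.9 and 73.2 in siNS, and without it 50.8 and 48.7 in siDCAF8, against 89.1 and 88.1 in siNS. The siDCAF8 libraries were thus all below the siNS libraries for WWTR1, with log2 differences of -0.68 with erastin and -0.82 without it (SE 0.07).

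In the siDCAF8+siLSH libraries WWTR1 was also below siNS, while YAP1 lay closer to siNS than in siDCAF8. WWTR1 measured 50.4 and 52.9 FPKM in siDCAF8+siLSH with erastin and 53.6 and 45.5 without it. These values stood above those of siDCAF8 with erastin (log2 difference 0.23, SE 0.07) and overlapped with them without it (-0.01). YAP1 measured 34.1 and 32.8 FPKM in siDCAF8+siLSH with erastin and 35.6 and 35.5 without it. Each pair stood between its siDCAF8 and siNS counterparts, with log2 differences against siDCAF8 of -0.61 with erastin and -0.39 without it (SE 0.06). The oeWDR76 libraries had the lowest YAP1 of the 8 groups, at 27.8 and 26.2 FPKM with erastin and 24.7 and 25.7 without it. The YAP1 difference from siNS was -0.22 under both conditions, and after the GC correction it was 0.006 with erastin and -0.01 without it. WWTR1 measured 42.9 and 40.4 FPKM in oeWDR76 with erastin and 45.3 and 42.0 without it, and its differences from siNS were -0.76 with erastin and -1.01 without it, or -0.54 and -0.78 after the GC correction.

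**Figure D1:**
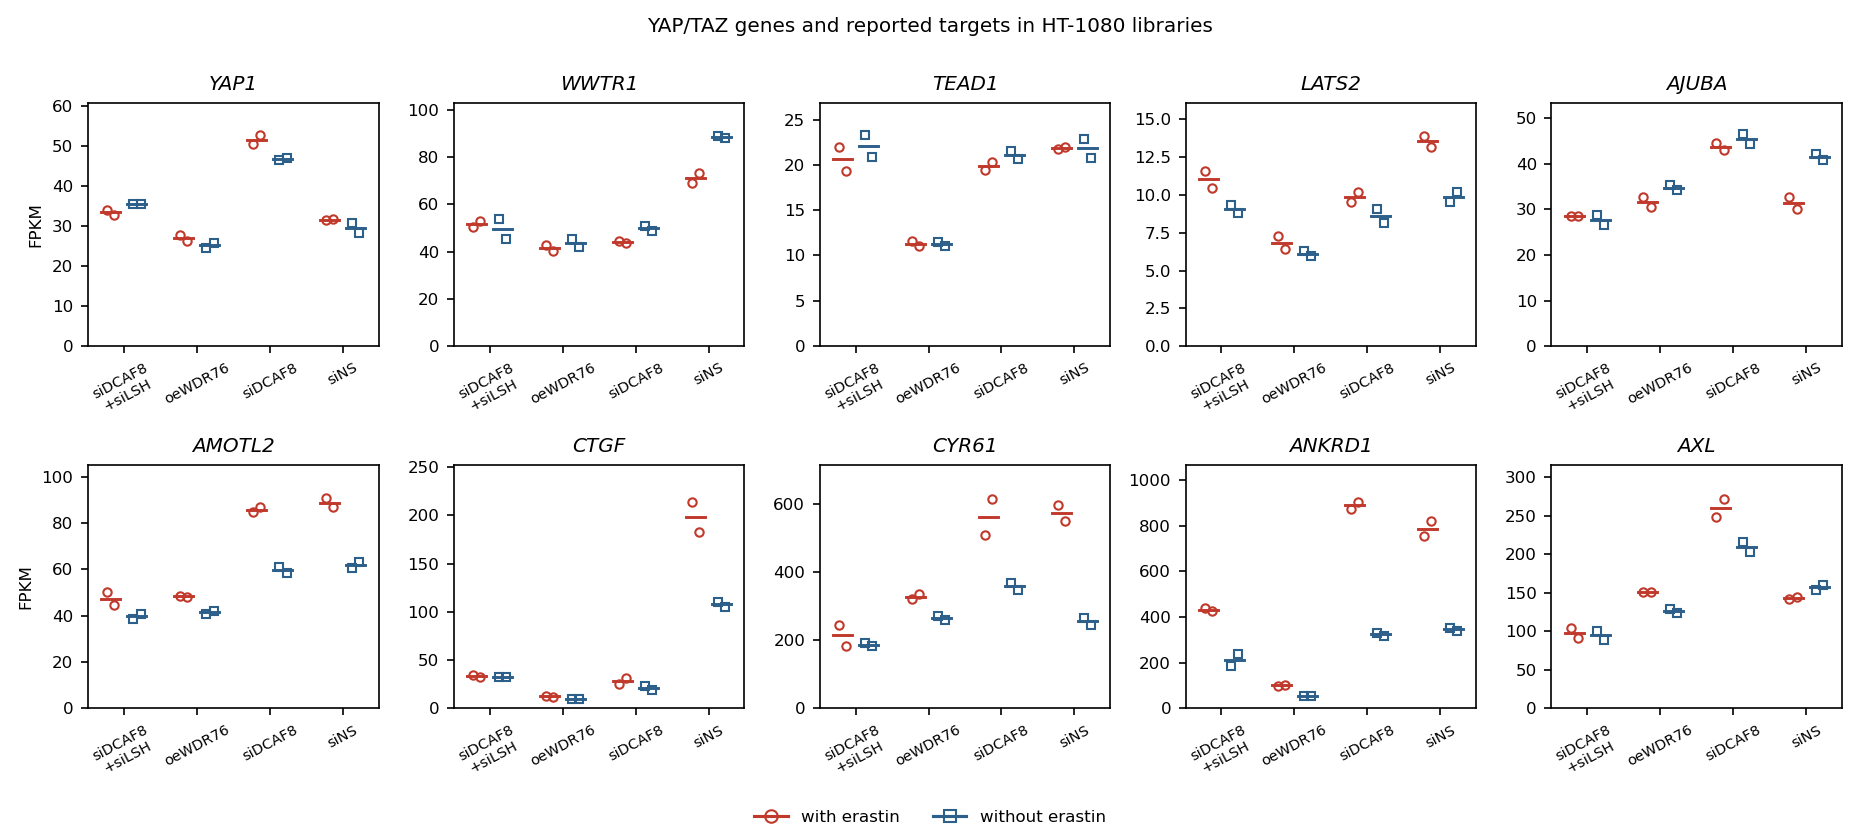
FPKM (linear axis from 0) of the 10 genes in each library, with the genotypes along the x axis, erastin libraries as circles left of untreated ones as squares, and bars at the means of n = 2. CTGF in the siNS libraries (105 to 214 FPKM) stood apart from every other library (9.5 to 34.1 FPKM), and TEAD1 in the oeWDR76 libraries (11.0 to 11.6 FPKM) from the rest.

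TEAD1 encodes one of the TEAD factors, the DNA-binding partners of the coactivators. It ran from 11.0 to 11.6 FPKM in the 4 oeWDR76 libraries and from 19.3 to 23.3 FPKM in the other 12, with no overlap. Its log2 differences in oeWDR76 against siNS were -0.90 with erastin and -0.89 without it (SE 0.07), and the GC correction brought them to -0.41 and -0.47. Among the other 6 groups every neighbour in the order of TEAD1 means overlapped with the next. TEAD2 and TEAD4, named here after their values were seen, were higher in oeWDR76, and TEAD3 differed by -0.08 with erastin and -0.04 without it (adjusted p = 0.542 and 0.746 in limma). TEAD2 averaged 11.9 ± 0.608 FPKM in oeWDR76, against 6.75 ± 0.827 in siNS, with erastin, and 11.7 ± 0.516 in oeWDR76 against 6.70 ± 0.290 in siNS without it (SD, n = 2 each). TEAD4 averaged 32.8 ± 0.0141 FPKM in oeWDR76, against 20.7 ± 0.481 in siNS, with erastin, and 28.3 ± 0.962 in oeWDR76 against 19.3 ± 0.467 in siNS without it. Their log2 differences were 0.73 and 0.72 for TEAD2 and 0.64 and 0.53 for TEAD4 with and without erastin (adjusted p = 1.14e-05, 1.47e-05, 7.44e-08 and 8.90e-07 in limma). The GC correction brought these to 0.32 and 0.38 for TEAD2 and 0.10 and 0.09 for TEAD4. The erastin difference of TEAD1 ran from -0.09 to 0.005 in the 4 genotypes.

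LATS2, AJUBA and AMOTL2 encode regulators of the coactivators. LATS2 encodes a kinase that inactivates them and is itself a reported YAP target. LATS2 measured 7.27 and 6.43 FPKM in oeWDR76 with erastin, against 6.27 and 5.95 without it, and in siNS 13.9 and 13.2 with erastin, against 9.53 and 10.2 without it. All 4 oeWDR76 libraries lay below the 12 others (8.14 to 13.9 FPKM), with log2 differences from siNS of -0.89 with erastin and -0.61 without it, or -0.78 and -0.52 after the GC correction. AJUBA encodes a LIM protein that binds and restrains LATS kinases. AJUBA stayed between 43.0 and 46.5 FPKM in the siDCAF8 libraries under both conditions, while in siNS it measured 32.8 and 30.2 FPKM with erastin, against 42.1 and 40.9 without it. The 4 siDCAF8+siLSH libraries were the lowest for AJUBA, at 26.7 to 28.7 FPKM, with log2 differences against siDCAF8 of -0.60 with erastin and -0.69 without it (SE 0.06).

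AMOTL2 encodes an angiomotin-family protein that tethers YAP at junctions and is also a reported YAP target. AMOTL2 measured 84.5 and 86.7 FPKM in siDCAF8 with erastin, against 61.1 and 58.3 without it, and in siNS 90.8 and 86.7 with erastin, against 60.6 and 62.9 without it. siDCAF8 differed from siNS by -0.05 under either condition (SE 0.06). The siDCAF8+siLSH libraries measured 50 and 44.5 FPKM with erastin and 38.7 and 40.8 without it, and the oeWDR76 libraries 48.3 and 48.2 with erastin and 40.6 and 42.0 without it. Both genotypes lay below siNS under both conditions, with log2 differences of -0.57 to -0.90 (SE 0.06), and those of oeWDR76 were -0.91 with erastin and -0.61 without it after the GC correction.

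CTGF and CYR61 encode secreted matricellular proteins of the CCN family and are widely used readouts of YAP and TAZ, yet their patterns parted across genotypes. With erastin, CTGF measured 25.1 and 31.2 FPKM in siDCAF8, 34.1 and 32.0 in siDCAF8+siLSH and 12.6 and 11.9 in oeWDR76, against 214 and 183 in siNS. The log2 differences from siNS were -2.78, -2.55 and -3.91 in that order (SE 0.10). Without erastin it measured 22.7 and 18.7 FPKM in siDCAF8, 32.9 and 31.9 in siDCAF8+siLSH and 9.59 and 9.5 in oeWDR76, against 111 and 105 in siNS. The differences without erastin were -2.33, -1.70 and -3.37, so the siNS libraries were above every other library under both conditions. After the GC correction the oeWDR76 differences were -4.18 with erastin and -3.59 without it.

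CYR61 showed no such gap. With erastin it measured 511 and 615 FPKM in siDCAF8, 320 and 336 in oeWDR76 and 246 and 184 in siDCAF8+siLSH, against 598 and 552 in siNS. Here siDCAF8 overlapped with siNS (log2 difference -0.04), and oeWDR76 (-0.81, or -1.05 after the GC correction) and siDCAF8+siLSH (-1.43) lay below it (SE 0.10). Without erastin CYR61 measured 370 and 349 FPKM in siDCAF8, 272 and 259 in oeWDR76 and 191 and 184 in siDCAF8+siLSH, against 265 and 246 in siNS. The siDCAF8 libraries stood above siNS (log2 difference 0.49) and the siDCAF8+siLSH libraries below it (-0.45). The oeWDR76 libraries overlapped with siNS, at 0.06 and, after the GC correction, -0.15.

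ANKRD1 encodes a muscle ankyrin-repeat protein and reached the highest FPKM of the 10 genes. It measured 875 and 905 FPKM in siDCAF8 with erastin, against 330 and 318 without it, and in siNS 753 and 818 with erastin, against 352 and 340 without it. In siDCAF8+siLSH it measured 437 and 426 FPKM with erastin, against 184 and 237 without it, and in oeWDR76 99.2 and 102 with erastin, against 51.8 and 51.6 without it. The 4 oeWDR76 libraries lay below all others, with log2 differences from siNS of -2.96 with erastin and -2.72 without it (SE 0.08), and of -3.15 and -2.85 after the GC correction. ANKRD1 in siDCAF8 differed from siNS by 0.18 with erastin and -0.09 without it, whereas CTGF in the same libraries differed by -2.78 and -2.33. ANKRD1 in siDCAF8+siLSH was below siDCAF8, with log2 differences of -1.04 with erastin and -0.63 without it.

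AXL encodes a receptor tyrosine kinase for GAS6. It measured 248 and 272 FPKM in siDCAF8 with erastin, against 216 and 203 without it, and in siNS 142 and 144 with erastin, against 153 and 161 without it. All 4 siDCAF8 libraries were above the other 12. In siDCAF8+siLSH AXL measured 104 and 91.1 FPKM with erastin and 100 and 89.0 without it, the lowest 4 libraries of the 16. The log2 difference of siDCAF8+siLSH against siDCAF8 was -1.41 with erastin and -1.14 without it (SE 0.07). CYR61 came next, with -1.39 and -0.94.

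**Figure D2:**
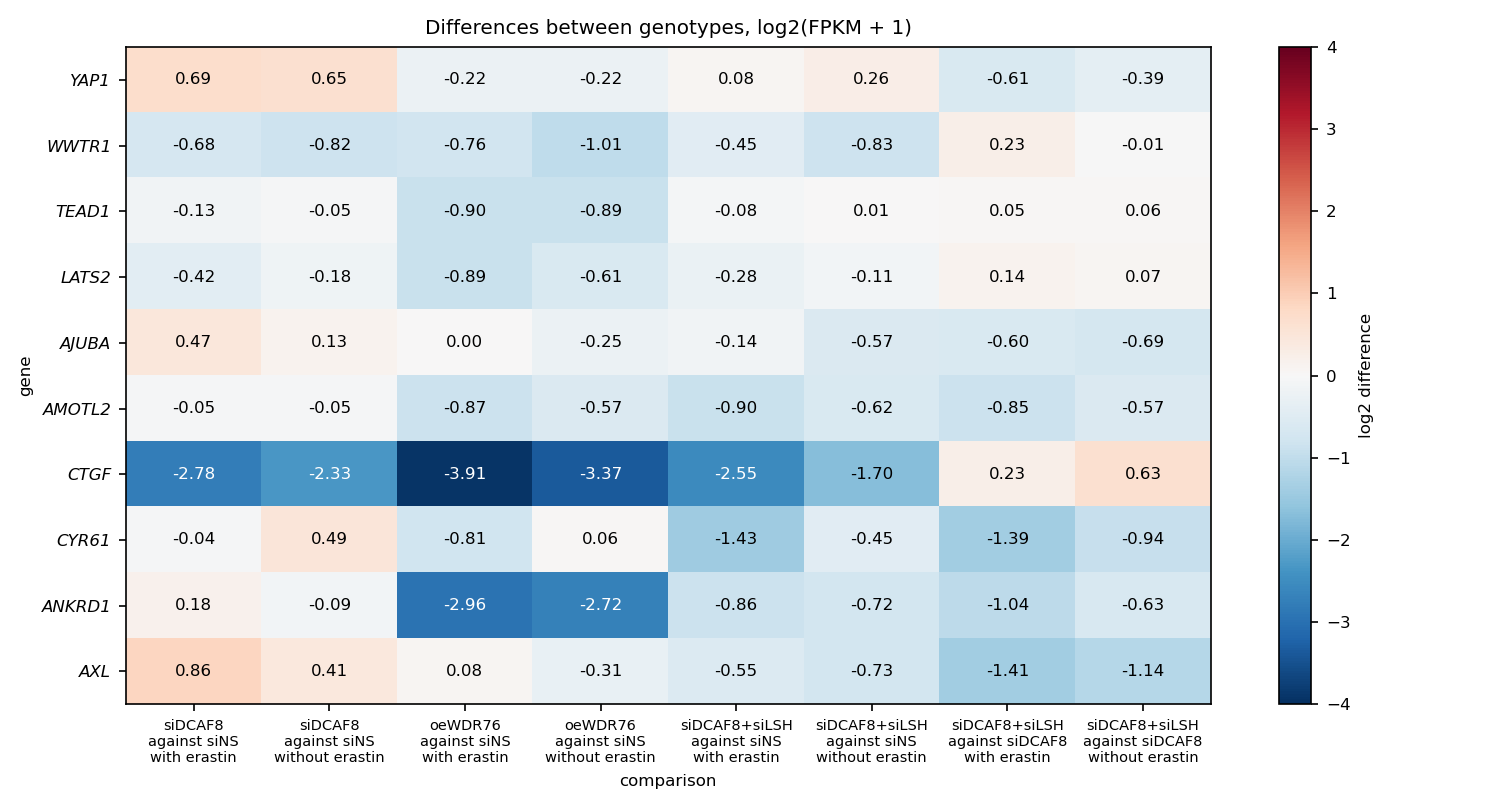
Log2 differences of FPKM + 1 (numbers and colours) for the 10 genes (rows) in 8 comparisons of genotypes (columns), each the group named first minus the group after "against". CTGF was lower than in siNS in all 6 comparisons with siNS (-1.70 to -3.91), and ANKRD1 was at -2.72 and -2.96 in the oeWDR76 columns, against -0.86 to 0.18 in its other 4 comparisons with siNS.

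Differences with erastin were set beside those of all 11260 genes tested, where a gene was called at an adjusted p under 0.05 in limma (Benjamini-Hochberg). In siDCAF8, 5 of the 10 genes (ANKRD1, CYR61, CTGF, AMOTL2 and AXL) were called higher and 1 (WWTR1) lower, beside 18.3% of all genes called higher and 22.5% called lower. WWTR1 was not called there without any 1 of the 4 siDCAF8 libraries, with no filter on low values, with median-ratio or quantile scaling, with the smaller pseudocount or in a fit of only the siDCAF8 groups. After the GC correction 6 were called higher and 1 lower in siDCAF8. In siDCAF8+siLSH, 3 (ANKRD1, AMOTL2 and LATS2) were called higher and 0 lower, beside 10.6% and 9.54%. Without siDCAF8+siLSH/Erastin replicate 1 that count was 1. In oeWDR76, 1 (ANKRD1) was called higher and 0 lower, beside 0.471% and 0.977%, and 5 were called higher in a fit of only the oeWDR76 groups and 3 after the GC correction. In siNS, 5 (ANKRD1, CYR61, CTGF, AMOTL2 and LATS2) were called higher and 2 (WWTR1 and AJUBA) lower, beside 15.1% and 22.4%. No reading is drawn from these counts, since the members were chosen with such values known.

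ANKRD1 was higher with erastin in every genotype. The difference of CYR61 was near that of ANKRD1 in siNS alone, and that of CTGF was smaller in each genotype. The log2 difference of ANKRD1 was 1.46 in siDCAF8, 1.04 in siDCAF8+siLSH and 0.94 in oeWDR76, against 1.18 in siNS (SE 0.08). For CYR61 it was 0.64 in siDCAF8, 0.18 in siDCAF8+siLSH and 0.30 in oeWDR76, against 1.17 in siNS (SE 0.10). In siDCAF8+siLSH the CYR61 libraries with and without erastin overlapped. For CTGF it was 0.42 in siDCAF8, 0.03 in siDCAF8+siLSH and 0.33 in oeWDR76, against 0.87 in siNS (SE 0.10). For AMOTL2 it was 0.51 in siDCAF8, 0.24 in siDCAF8+siLSH and 0.22 in oeWDR76, against 0.52 in siNS (SE 0.06).

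**Figure D3:**
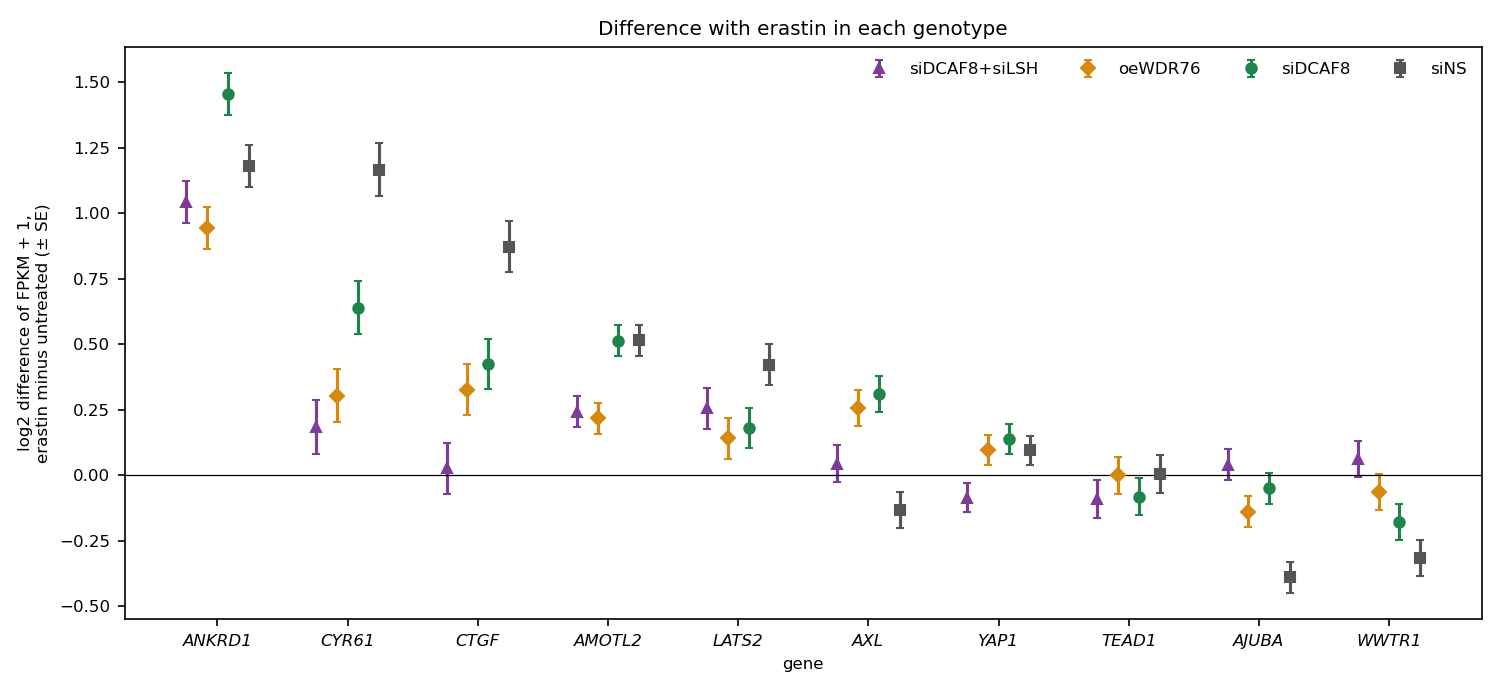
Log2 difference of FPKM + 1, erastin minus untreated, for the 10 genes (x axis), with a symbol per genotype and bars of 1 SE from the model over n = 2 libraries a group. ANKRD1 stood between 0.94 and 1.46 in all 4 genotypes, while CTGF ran from 0.03 in siDCAF8+siLSH to 0.87 in siNS.

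The erastin responses of the genotypes were then set against each other. Between siDCAF8 and siNS, 2 of the 10 genes (AXL and AJUBA) were called with a higher response and 2 (CYR61 and CTGF) with a lower one, beside 11.0% and 9.84% of all genes. The response of AXL was higher by 0.44 in siDCAF8 (SE 0.10) and that of AJUBA by 0.34 (SE 0.08). Between oeWDR76 and siNS, 1 (AXL) was called higher and 3 (CYR61, CTGF and AMOTL2) lower, beside 9.04% and 5.11%. Between siDCAF8+siLSH and siDCAF8, 0 were called higher and 4 (CYR61, ANKRD1, CTGF and AMOTL2) lower, with log2 values of -0.46 to -0.27, beside 14.2% and 9.24%. No reading is drawn from these counts either, and they were not stable to single libraries. The first of them was 2 without siNS replicate 2, siNS/Erastin replicate 1, siDCAF8 replicate 1 or siDCAF8/Erastin replicate 1. The second was 2 without siNS replicate 2, oeWDR76 replicate 2 or oeWDR76/Erastin replicate 2. The third was 0 without siDCAF8/Erastin replicate 2, 1 without siDCAF8 replicate 2, siDCAF8+siLSH replicate 2 or siDCAF8+siLSH/Erastin replicate 2, and 2 without siDCAF8 replicate 1. With no filter on low values the first was 2 and the third 1, and in a fit of only the groups compared the third was 1. After the GC correction the second held 2 higher and 4 lower, and the third 1 higher and 2 lower.

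Comparisons with siNS share the siNS libraries, so they are not independent of each other. The 10 genes were chosen with such values known, so no reading is drawn from the counts and medians below. In siDCAF8 against siNS, 3 genes were called higher and 3 lower with erastin, beside 34.8% and 30.0% of all genes, and 3 higher and 2 lower without it, beside 31.0% and 29.9%. In oeWDR76, 0 were called higher and 8 lower with erastin, beside 45.2% and 31.0%, and 0 higher and 9 lower without it, beside 41.6% and 32.0%. In siDCAF8+siLSH against siNS, 0 were called higher and 7 lower with erastin, beside 39.3% and 26.7%, and 1 higher and 7 lower without it, beside 35.9% and 30.9%. Against siDCAF8, siDCAF8+siLSH had 1 called higher and 6 lower with erastin, beside 30.4% and 19.3%, and 1 higher and 6 lower without it, beside 26.4% and 21.7%. The median log2 difference of the 10 genes in oeWDR76 was -0.84 with erastin and -0.59 without it, or -0.66 and -0.49 after the GC correction, beside 0.11 and 0.07 over all genes. With median-ratio scaling the median of all genes in oeWDR76 with erastin moved by -0.11, the only comparison in which it moved by over 0.1.

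The pathway beyond these genes was read from 3 lists of 48 genes, of which 47 were in the table and 42 passed the filter of a mean of 1 FPKM. These lists were also chosen with earlier results of these data known. Their counts and p-values thus describe these libraries and are not independent support. AMOT, IGFBP3, NT5E, RBMS3 and EDN1 did not pass, and AREG was not matched. With erastin, 14 of the 42 (33.3%) rose and 6 (14.3%) fell in siDCAF8, beside 18.3% and 22.5% of all genes. In siDCAF8+siLSH 8 (19%) rose and 3 (7.14%) fell, beside 10.6% and 9.54%, and in oeWDR76 2 rose (TGFB2 and FRMD6) and 1 (NUAK2) fell, beside 0.471% and 0.977%. In siNS 15 (35.7%) rose and 6 (14.3%) fell, beside 15.1% and 22.4%, with a median log2 difference of 0.11 beside -0.03 over all genes. In oeWDR76 6 were called after the GC correction and 1 with no filter on low values, and in siDCAF8+siLSH 7 were called with no filter and 6 when the fit held only its own groups. BIRC5, the survivin gene, fell with erastin by 0.95 in siDCAF8 and 0.72 in siDCAF8+siLSH, against 0.64 in siNS (adjusted p = 7.33e-07, 2.66e-05 and 2.80e-05 in limma), and in oeWDR76 the difference was -0.17 (adjusted p = 0.415 in limma). In siNS the target TGFB2, a growth factor gene, rose by 0.53 (SE 0.07, adjusted p = 5.03e-05 in limma) and the upstream kinase TAOK2 fell by 0.53 (SE 0.06, adjusted p = 6.52e-06). The counts depended on single libraries: 11 were called in siDCAF8 without siDCAF8/Erastin replicate 2, 13 without siDCAF8 replicate 1 or siDCAF8 replicate 2, and 13 in siNS without siNS replicate 2. In siDCAF8+siLSH 5 were called when the untreated replicate 2 was left out, 6 without the erastin-treated replicate 1 and 7 without the erastin-treated replicate 2 of that genotype. In oeWDR76 1 was called without oeWDR76 replicate 2 or oeWDR76/Erastin replicate 2. Without oeWDR76 replicate 1 or oeWDR76/Erastin replicate 1, 0 were called by limma, with 9 and 5 at an unadjusted p under 0.05.

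Among genotypes, the published target list was mostly lower in oeWDR76 and in siDCAF8+siLSH, and so were the other reported targets in oeWDR76. Of 13 tested genes of a published target list, 11 fell and 0 rose in oeWDR76 with erastin, and 9 (69.2%) fell and 3 (23.1%) rose without it, beside 31.0% lower and 45.2% higher of all genes with erastin and 32.0% and 41.6% without it. In siDCAF8+siLSH against siNS the same list had 11 lower and 0 higher with erastin, and 9 lower and 1 higher without it, beside 26.7% and 39.3%, and 30.9% and 35.9%, of all genes. The median log2 differences of the list were -0.49 with erastin and -0.55 without it in oeWDR76 (-0.63 under both after the GC correction) and -0.39 and -0.32 in siDCAF8+siLSH, beside medians of 0.03 to 0.11 over all genes. In siDCAF8 against siNS the list split evenly, with 4 higher and 4 lower with erastin and 5 and 5 without it, beside 34.8% and 30.0%, and 31.0% and 29.9%, of all genes. Of the 7 other reported targets tested, 6 fell and 1 rose in oeWDR76 with erastin, and 5 fell and 1 rose without it. In siDCAF8+siLSH 3 of these 7 fell and 2 rose under both conditions, with medians of 0.04 with erastin and -0.11 without it. CCDC80, a matrix protein gene, fell by 0.83 in siDCAF8 without erastin (SE 0.09, adjusted p = 1.27e-06 in limma), to 12.7 ± 0.368 FPKM, against 23.4 ± 1 in siNS. PTPN14, a phosphatase that restrains YAP and is itself a target, fell by 1.51 in oeWDR76 without erastin (SE 0.08, adjusted p = 8.80e-11 in limma), and by 0.90 after the GC correction. GADD45A, a stress response gene, fell by 0.91 in siDCAF8+siLSH against siNS with erastin (SE 0.07, adjusted p = 5.61e-09 in limma) and by 1.07 without it (adjusted p = 7.58e-10).

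FSTL1, which encodes a secreted glycoprotein, was lower than in siNS in the other 3 genotypes, with log2 differences of -0.76 in siDCAF8, -0.69 in siDCAF8+siLSH and -1.16 in oeWDR76 without erastin (adjusted p = 2.31e-08, 4.68e-08 and 4.84e-11 in limma), the last being -1.10 after the GC correction. BIRC5 was higher, by 0.39, 0.80 and 1.19 in the same order without erastin (adjusted p = 0.000830, 4.03e-07 and 1.85e-09 in limma), and with erastin by 1.67 in oeWDR76 (adjusted p = 2.74e-11 in limma), or 1.44 after the GC correction. CCND1, the cyclin D1 gene, averaged 108 ± 0.778 FPKM in oeWDR76 with erastin, against 199 ± 5.13 in siNS with erastin (SD, n = 2 each). Its log2 difference there was -0.88 (SE 0.05, adjusted p = 2.01e-10 in limma), and -0.86 after the GC correction.

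Of 22 tested Hippo kinases, adaptors and TEAD partners, 12 (54.5%) fell and 7 (31.8%) rose in oeWDR76 with erastin, beside 31.0% and 45.2% of all genes, and 11 (50%) fell and 8 (36.4%) rose without it, beside 32.0% and 41.6%. TAOK1, an upstream kinase gene, fell without erastin by 1.08 (SE 0.06, adjusted p = 1.52e-10 in limma), and by 0.43 after the GC correction. FRMD6, which encodes a membrane-linked Hippo regulator, fell without erastin by 0.98 (SE 0.08, adjusted p = 4.53e-09 in limma) and by 0.77 after the GC correction, to 20.3 ± 1.39 FPKM, against 41.0 ± 0.658 in siNS (SD, n = 2 each). In siDCAF8 against siNS, 5 of the 22 (22.7%) rose and 7 (31.8%) fell with erastin, beside 34.8% and 30.0% of all genes, and 5 rose and 5 fell without it (22.7% each), beside 31.0% and 29.9%. TAOK2 rose by 0.65 and 0.54 in siDCAF8 and by 1.08 and 0.59 in siDCAF8+siLSH, with and without erastin (adjusted p = 1.09e-07, 1.08e-06, 3.60e-10 and 2.53e-07 in limma). With erastin, TEAD2 and TEAD3, further TEAD factor genes, fell in siDCAF8 by 0.72 and 0.68 (adjusted p = 2.15e-05 and 6.61e-05 in limma).

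In siDCAF8+siLSH against siDCAF8, 21 of the 42 pathway genes (50%) fell and 12 (28.6%) rose with erastin, beside 19.3% and 30.4% of all genes. Without erastin 19 (45.2%) fell and 8 (19%) rose, beside 21.7% and 26.4%. The targets MYOF, a membrane repair gene, and ASAP1, an Arf GTPase-activating protein gene, fell by 0.80 and 0.82 without erastin (SE 0.06 and 0.07, adjusted p = 5.64e-08 and 1.35e-07 in limma). CCDC80 rose by 0.92 (SE 0.09, adjusted p = 1.41e-06 in limma), to 25.0 ± 0.594 FPKM in siDCAF8+siLSH, against 12.7 ± 0.368 in siDCAF8 (SD, n = 2 each). CTGF, with 0.63, was likewise above siDCAF8 in this comparison.

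**Figure D4:**
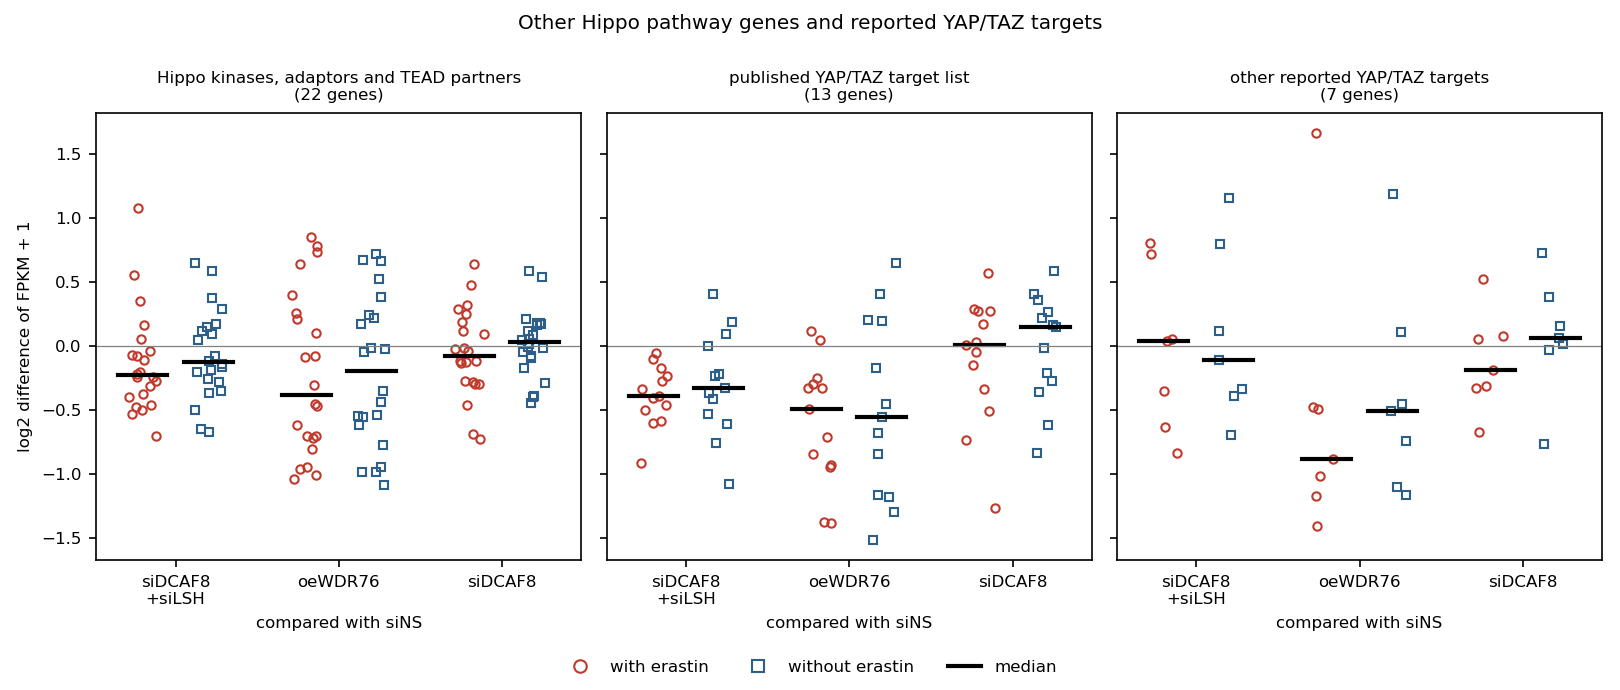
Log2 differences of FPKM + 1 against siNS for the tested genes of 3 lists (1 point a gene), in 3 genotypes, with erastin (circles, left) and without it (squares, right), and bars at the medians. The published target list had medians of -0.32 to -0.55 in siDCAF8+siLSH and oeWDR76 and of 0.01 with and 0.15 without erastin in siDCAF8.

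Over the 8 group means, the 10 genes did not form 1 pattern. As a description, Pearson's r on the log2 scale was highest for LATS2 and ANKRD1 (0.90) and for AMOTL2 and CYR61 (0.89), and lowest for YAP1 and WWTR1 (-0.18). CTGF and WWTR1 had 0.88, and CTGF and AXL -0.03. Each r rests on the same 8 groups, in which several of these genes were low in oeWDR76. Among all genes tested, the group means most like those of ANKRD1 were of GPATCH2L (r = 0.99), SETDB1 and EPG5, and those most like CTGF were of CLOCK (r = 0.99), CBL and RCBTB1. The genes most like CYR61 were TTC7A (r = 0.96), SUDS3 and SFSWAP. These genes were picked from all genes tested for the highest r over 8 points, so their r is a description only.

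Some exons overlap with other annotated genes. An antisense gene overlapped 628 of 6296 exon bases of YAP1, 795 of 8413 of WWTR1, 195 of 2339 of CTGF and 67 of 5154 of AXL, in the GENCODE annotation. On the same strand, the pseudogene RPL39P5 overlapped 187 of 5984 exon bases of AMOTL2, and the protein-coding AL132780.3 50 of 5979 of AJUBA. The sources used here do not say that counting used the strand, so reads of the antisense pairs cannot be told apart there. Strand would not separate the same-strand pairs.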

How the data were processed

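RNA of 16 libraries of HT-1080 cells was sequenced on a BGISEQ500 after Smart-seq v4 amplification, per the labels' protocols. The deposited values are FPKM per gene, which the authors made with StringTie and the GRCh38 build, per the submitters' processing notes. Aligner, annotation and versions: not given in the sources used here. Of 24107 entries in the table, 17552 held values. It gives no counts, so depth is unknown, and the precision known is the median SD of 0.05 to 0.07 log2 between the libraries of a group.

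A log2(FPKM + 1) model was fitted to the 11260 genes averaging 1 FPKM or more, with limma 3.58.1 in R 4.3.3 (8 group means, eBayes with a trend, 15 contrasts, two-sided, Benjamini-Hochberg adjustment per contrast, called under 0.05). The model was tested on simulated data, and the outcome is not given or used as support here. Python 3.11.15, pandas 2.3.3, numpy 2.4.6 and matplotlib 3.10.9 served for tables and plots. Alternatives were a pseudocount of 0.1, no filter, a filter at 5 FPKM, median-ratio scaling, quantile normalization, a correction for GC content and transcript length (GC known for 99.8% of genes), a replicate block, a fit restricted to the compared groups, and omission of each library. Genes outside the 10 were named from up to 4 called members of each list with the lowest p per contrast, and likeness was Pearson's r over group means. The 10 genes, the lists and the tests were chosen with earlier results of these data known. One gene of the lists is not reported here and is in no count of them. Promoters are RefSeq's.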

Additional observations from a re-analysis of the deposited data

Results flagged for a closer look

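The results in this section were singled out because the erastin response differed between genotypes in limma's test of the difference itself, at an adjusted p under 0.05. Values are log2 differences of the responses, the genotype named first minus the other. The counts of pathway genes called in these differences are set beside the shares of all genes in the next section. For the 10 genes they are a description, since these genes were chosen with the data known.

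Between siDCAF8 and siNS, the response of NF2, which encodes the tumour suppressor Merlin, was lower by -0.55, and of VGLL4, a TEAD cofactor that competes with YAP, by -0.49. The responses of FOXF2 (-0.49), CCDC80 (-0.43), TGFB2 (-0.33), CCND1 (-0.29) and TGM2 (-0.25) were lower too, and that of MYOF was higher (0.30). Of the 10 genes, CYR61 (-0.53) and CTGF (-0.45) had lower responses, and AXL (0.44) and AJUBA (0.34) higher ones. The calls of VGLL4, NF2 and CCND1 held under each alternative and without each library, and those of the other 5 pathway genes were each lost without at least 4 single libraries.

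Between oeWDR76 and siNS, the response of NUAK2 was lower by -0.73, of MYC by -0.59 and of CCND1 by -0.37, and that of TAOK2 was higher by 0.41. These 4 calls held under each alternative and without each library. The responses of F3 (-0.53), FOXF2 (-0.53) and TGM2 (-0.30) were lower and that of BIRC5 was higher (0.47), and these 4 calls were lost with no filter on low values and without some single libraries. Of the 10 genes, CYR61 (-0.86), CTGF (-0.55) and AMOTL2 (-0.30) had lower responses and AXL a higher one (0.39).

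Between siDCAF8+siLSH and siDCAF8, the responses of MOB1B (-0.50) and FRMD6 (-0.48) were lower, and those of TEAD2 (0.59), TGM2 (0.40), TAOK2 (0.38) and ARHGEF17 (0.35) were higher. None of these 6 calls held after a correction on GC content and transcript length. Of the 10 genes, CYR61 (-0.46), ANKRD1 (-0.41), CTGF (-0.40) and AMOTL2 (-0.27) had lower responses. After the same correction their values were -0.52, -0.29, -0.49 and -0.50 in that order, and 1 of the 10 genes was called higher and 2 lower.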

How the results depend on the processing

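Depth is unknown and 2 libraries a group limit the precision. Of 42 pathway genes, 3 were called with erastin in oeWDR76, but 1 with no filter on low values and 6 after correcting on GC content and length. In siDCAF8+siLSH 11 were called, but 7 with no filter and 6 in a fit of only the groups compared. For the differences of responses, 9 were called between siDCAF8 and siNS and 8 between oeWDR76 and siNS, but 5 and 4 with no filter. The 9 were 1 higher (2.38%) and 8 lower (19%), beside 11.0% and 9.84% of all genes. The 8 were 2 higher (4.76%) and 6 lower (14.3%), beside 9.04% and 5.11%. Between siDCAF8+siLSH and siDCAF8 7 were called, but 0 by limma after the GC correction (12 at an unadjusted p under 0.05), and the cause was not tested. The 7 were 5 higher (11.9%) and 2 lower (4.76%), beside 14.2% and 9.24% of all genes. Without single libraries, counts ran from 11 to 15 in siDCAF8 (20 with all), 0 to 1 in oeWDR76 (3), 5 to 9 in siDCAF8+siLSH (11) and 13 to 18 in siNS (21) for erastin, and from 3 to 9 (9), 5 to 7 (8) and 4 to 9 (7) for the response differences of siDCAF8 from siNS, of oeWDR76 from siNS and of siDCAF8+siLSH from siDCAF8. YAP1 in oeWDR76 against siNS with erastin changed sign, to 0.00602, after the GC correction. With median-ratio scaling the share of higher calls over all genes went to 50.5% in the response difference of oeWDR76 from siNS (63.9% as deposited), 50% in that of siDCAF8+siLSH from siDCAF8 (60.6%), and 49.1% and 49.6% in siDCAF8+siLSH with erastin against siNS (59.5%) and against siDCAF8 (61.1%). Quantile normalization gave 52.1% for erastin in siNS (40.4%). Correlations of deviations between libraries of the same number ran from -0.21 to 0.39 over 28 pairs of groups. Of these, 7 were over 0.1 and 7 under -0.1, and the highest was of siDCAF8 with siDCAF8+siLSH. No pairing by number common to all groups was seen, but these values cannot exclude a pairing within some groups. With the replicate block no count of pathway genes moved by 1.5 times and no named call was lost.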

Other observations

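Other pathway genes moved with erastin too. CCND1 rose in siNS to 199 ± 5.13 FPKM with erastin, against 151 ± 0.940 without it (SD, n = 2 each; log2 difference 0.40, adjusted p = 3.00e-05 in limma). TGM2, which encodes a crosslinking transglutaminase, rose by 0.64 in siDCAF8+siLSH (adjusted p = 3.99e-06 in limma) and by 0.49 in siNS (adjusted p = 1.48e-05). In oeWDR76 against siNS without erastin TGM2 fell by 1.10 (adjusted p = 9.53e-11 in limma), and also by 1.10 after the GC correction. THBS1, which encodes thrombospondin, was a reported target at a low level that differed in direction between genotypes. It averaged 3.16 ± 0.233 FPKM in siDCAF8+siLSH and 2.08 ± 0.177 in siDCAF8, against 0.855 ± 0.0212 in siNS, without erastin (log2 differences 1.16 and 0.73). In oeWDR76 it averaged 0.360 ± 0.0707 FPKM, with a log2 difference from siNS of -0.45 that was -0.14 after the GC correction. With erastin it was lower in siDCAF8+siLSH by 0.31. THBS1 averaged under 1 FPKM in siNS and oeWDR76 and passed the filter only through siDCAF8 and siDCAF8+siLSH. Its differences are thus given without a p-value, though it remains in the counts of its list.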
